A study of Xenopus tropicalis with 26 samples.

Results

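The genes described here make and carry out the decay of messenger RNA: the deadenylases, the decapping enzymes, the exonucleases, the proteins that bind the poly(A) tail, the factors of nonsense-mediated decay and the adaptors that bring these enzymes to an RNA. Members were chosen by symbol alone, as the rows named *cnot* with a number, *pan2*, *pan3*, *dcp1a*, *dcp1b*, *dcp2*, *dcps*, *edc3*, *edc4*, *xrn1*, *xrn2*, *exosc*, *pabpc*, *pabpn*, *upf*, *smg*, *btg*, *tob1*, *tob2* and *pum* with a number. The rule found 55 of the 34192 genes in the table. All 55 were among the 15019 genes with an abundance above 0.4 in 6 consecutive samples of a condition, which were the genes tested. They fall into 9 CCR4-NOT genes, 2 PAN2-PAN3 genes, 7 BTG/TOB genes, 5 poly(A) binding protein genes, 6 decapping genes, 2 XRN exonuclease genes, 10 exosome genes, 11 nonsense-mediated decay genes and 3 Pumilio genes. The symbol *smg5* stands on 2 rows, which are given by their gene IDs, and reads of near-identical copies may have been split between them.

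The high K+ group was 13 samples of *Xenopus tropicalis* embryos held in 10 mM KCl, a high external K+ that is known to depolarize cells, and the control group was 13 samples of embryos in the normal dilute Ringer medium (1/9x MR). Embryos of both groups came from in vitro fertilization and were kept at 25 °C. Each sample pooled 10 whole embryos, and samples were taken every 30 min from stage 8, a blastula, to stage 13, the end of gastrulation, at 0 to 6 h. There was a single time course for either condition. Time points therefore stand in for replicates, and every SD, SE and p-value below measures only the spread between time points.

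A messenger RNA usually dies in steps. Its poly(A) tail is shortened first, by PAN2-PAN3 and then by the CCR4-NOT complex, after which the cap is removed by DCP2 and its partners and the body is digested from the 5′ end by XRN1, or from the 3′ end by the exosome. Early frog embryos live on RNA that the mother stored in the egg. At the mid-blastula transition the embryo's own genome becomes active, and many of the stored RNAs are deadenylated and cleared, so that the genes of this machinery are themselves partly maternal RNAs on the way out and partly RNAs that the embryo makes anew.

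The values are corrected abundances per gene, adjusted by the authors with ERCC spike-in RNAs, and the sequencing depth behind them is unknown. The egg and late stage markers followed the labels. At 6 h all 5 egg RNAs looked up (*mos*, *wee2*, *gdf1*, *velo1* and *zar1*) were lower than at 0 h in both conditions, and all 6 RNAs of the late gastrula and early neurula, *pax6* among them, were higher. Zygotic RNAs of blastula and gastrula were mixed. *mixer*, *ventx1.2*, *sox17a*, *gsc* and *foxa4* were higher at 6 h in both conditions, while *sia2* and *vegt* were lower. *sia2* had risen in between, to at most 51.6 in high K+ and 39.9 in control embryos. *vegt* already had 257 and 186 at 0 h, so it cannot be read as a zygotic RNA alone. The values at 0 and 6 h do not show that both conditions were at the same stage at each label. The spike-in RNAs themselves still differed between the samples of a pair by -0.53 to 0.68 on the log2 scale, high K+ minus control. In whole embryos fewer cells of a type and less RNA per cell cannot be told apart. The labels give the molecule as polyA RNA while the extraction they describe is of total RNA, so how the libraries were selected is uncertain. If by the tail, a change in the amount of an RNA and a change in its tail cannot be told apart either.

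On the deposited scale more members fell than rose over the time course, as did more of all tested genes. From 0–1 h to 5–6 h, 31 members fell and 7 rose in high K+ embryos, where 53.3% of all tested genes fell and 20.4% rose. In control embryos 33 fell and 6 rose, where 55.7% of all tested genes fell and 19.5% rose (limma on log2(abundance + 1), Benjamini-Hochberg adjusted p under 0.05 over all tested genes). The members' own shares were 56.4% and 12.7% in high K+ embryos, and 60.0% and 10.9% in control embryos, close to the whole table for the RNAs that fell. The same 30 members fell in both conditions and the same 6 rose in both. The median change was -0.92 over the members and -0.78 over all tested genes in high K+ embryos, and -0.94 and -0.87 in control embryos. These counts depend on the scaling. Where each sample was scaled to a median ratio of 1 over the tested genes, the median of all genes moved to 0.09 in high K+ and 0.10 in control embryos, and 22 members rose and 16 fell in high K+ embryos, against 20 and 15 in control embryos. With spike-in scaling 3 members rose in control embryos. The shares of all tested genes that rose or fell under these scalings are not given. Of the 30 members that fell in both conditions, 13 also fell in both with the median ratio scaling and with spike-in scaling. Among them were *btg4*, *cnot6l*, *cnot8*, *dcp1a*, *edc3*, *exosc5*, *pabpc1l*, *pabpn1l*, *pan2*, *pan3*, *tob1* and *tob2*. Of the 6 that rose, *btg1*, *cnot7* and *exosc2* rose in both conditions under every scaling.

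**Figure D1:**
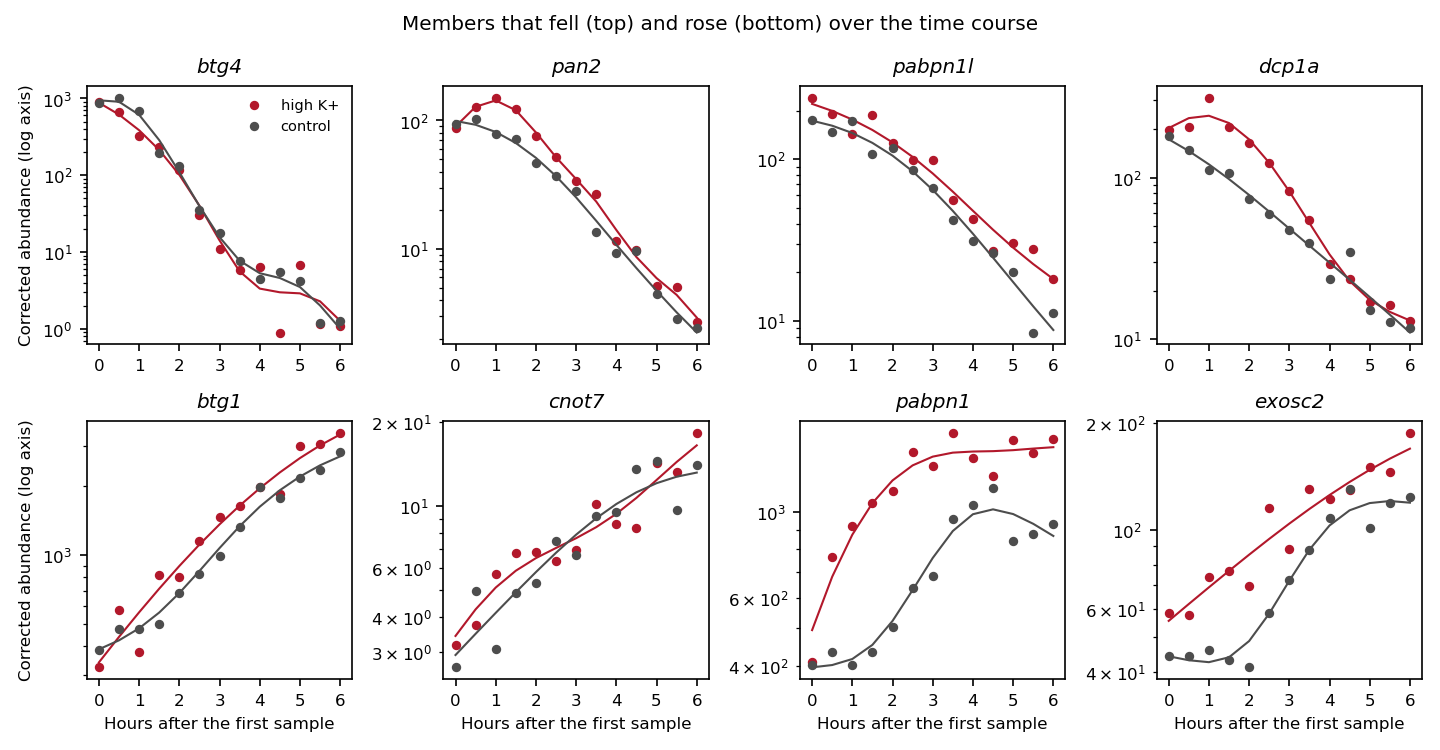
Corrected abundance (log axis) against hours after the first sample for 4 members that fell (top) and 4 that rose (bottom), with high K+ in red and control in grey. Points are samples of 10 embryos and lines are the medians of the Gaussian process fits. *btg4* reached 1.09 in high K+ and 1.28 in control embryos at 6 h, while *btg1* reached 3432 and 2826.

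The steepest loss was that of *btg4*, an oocyte and egg member of the BTG family whose mouse protein brings CCR4-NOT to maternal RNAs. Its abundance was 886, 10.8 and 1.09 at 0, 3 and 6 h in high K+ embryos, against 883, 17.8 and 1.28 in control embryos. The loss was nearly complete in both conditions and most of it was over by 3 h. The change was -7.46 in high K+ and -8.17 in control embryos on the log2(abundance + 1) scale (SE 0.53 each, limma adjusted p = 1.12e-07 and 4.86e-08). The 2 subunits of the PAN2-PAN3 deadenylase went the same way. *pan2*, the catalytic subunit, had 88.1, 33.9 and 2.72 at 0, 3 and 6 h in high K+ embryos, against 93.1, 28.2 and 2.42 in control embryos. *pan3*, which binds the poly(A) binding protein and holds PAN2 to the tail, had 148, 78.6 and 24.1 in high K+ embryos, against 197, 82.7 and 21.4 in control embryos. Their changes were -4.53 and -2.99 in high K+ embryos, against -4.47 and -2.88 in control embryos (SE 0.27 to 0.29).

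Paralogs of 1 family did not share a course. Of the nuclear poly(A) binding proteins, *pabpn1l*, an egg form, had 240.2, 98.9 and 18.0 at 0, 3 and 6 h in high K+ embryos, against 176, 66.2 and 11.1 in control embryos. *pabpn1*, the form that binds new tails in the nucleus, had 408, 1316 and 1547 in high K+ embryos, against 400.5, 684 and 930.0 in control embryos. The abundance of *pabpn1* was 1.70 times that of *pabpn1l* at 0 h and 85.8 times at 6 h in high K+ embryos, against 2.28 and 83.6 times in control embryos. In the cytoplasmic pair *pabpc1* was the more abundant from the first sample on. *pabpc1l*, the embryonic form known from frog eggs, had 87.5, 81.7 and 13.9 in high K+ embryos, against 85.9, 79.9 and 13.9 in control embryos. *pabpc1*, the general form, had 618, 1465 and 1884 in high K+ embryos, against 714, 934 and 1385 in control embryos. The rises of *pabpn1* and *pabpc1* in control embryos did not pass the test with spike-in scaling (limma adjusted p = 0.11 and 0.27). The abundances derive from values per length, but the later correction and reads shared between copies limit such ratios between genes.

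The 2 catalytic subunits CNOT7 and CNOT8, which take the same place in the CCR4-NOT complex, moved in opposite directions. *cnot8* had 128, 98.0 and 62.2 at 0, 3 and 6 h in high K+ embryos, against 193, 109 and 56.6 in control embryos, and its changes were -1.90 and -2.44 (SE 0.37, limma adjusted p = 0.000494 and 6.38e-05). *cnot7* had 3.19, 6.96 and 18.3 in high K+ embryos, against 2.65, 6.71 and 14.0 in control embryos, with changes of 1.66 and 1.60 (SE 0.28, adjusted p = 0.000173 and 0.00021). The abundance of *cnot8* was 40.1 times that of *cnot7* at 0 h and 3.39 times at 6 h in high K+ embryos, against 73.1 and 4.05 times in control embryos. At the last sample *cnot8* was still the more abundant in both conditions. Among the BTG genes, *btg1*, an antiproliferative adaptor that binds CNOT7 and CNOT8, had 323, 1471 and 3432 in high K+ embryos, against 386, 989 and 2826 in control embryos. Its changes, 2.93 and 2.45 (SE 0.22), were the highest of the members in both conditions.

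**Figure D2:**
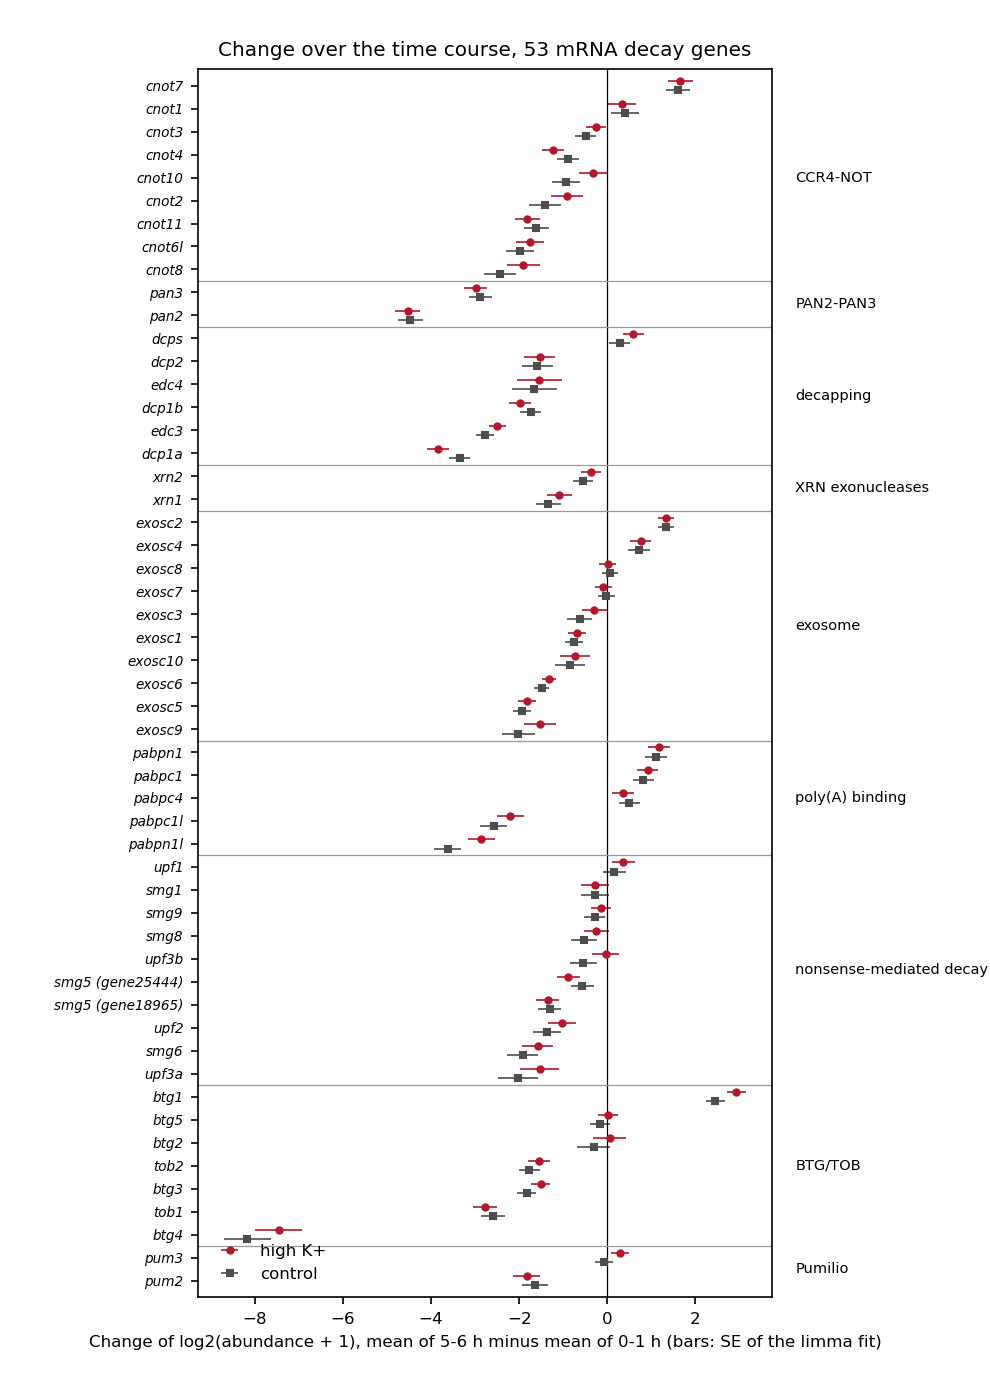
Change of log2(abundance + 1) from 0–1 h to 5–6 h for 53 members, grouped by role, in high K+ (red circles, upper) and control embryos (grey squares, lower). Bars are the SE of the limma fit. The 2 conditions lie side by side for the members drawn, from -7.46 and -8.17 for *btg4* to 2.93 and 2.45 for *btg1*.

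Of the decapping genes, 5 of 6 fell in both conditions as deposited, where 53.3% of all tested genes fell in high K+ and 55.7% in control embryos. With median of ratios scaling *dcp1a* and *edc3* fell in both, *dcp1b* in high K+ embryos, and *dcp2* and *edc4* in neither. *dcp1a*, an activator of the decapping enzyme, fell most, with 197, 82.0 and 13.0 at 0, 3 and 6 h in high K+ embryos, against 180.1, 47.4 and 11.7 in control embryos. *dcp2*, the enzyme itself, changed by -1.54 in high K+ and -1.59 in control embryos (SE 0.35). *edc3* and *edc4*, which hold the decapping complex together, changed by -2.50 and -1.54 in high K+ embryos, against -2.77 and -1.66 in control embryos. *dcps*, which breaks down the cap left after 3′ decay, passed the test in high K+ embryos (0.59, SE 0.24, limma adjusted p = 0.041) and had a change of 0.28 in control embryos (adjusted p = 0.30), and the difference between these changes did not pass the test.

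The exosome genes did not share 1 course, and neither did all tested genes. Of the 10 exosome genes 20% rose in each condition, and 40% fell in high K+ and 50% in control embryos. Over all tested genes 20.4% rose and 53.3% fell in high K+ embryos, against 19.5% and 55.7% in control embryos. A split of this kind is thus not a trait of the exosome genes. *exosc2* and *exosc4* rose in both conditions, *exosc1*, *exosc5*, *exosc6* and *exosc9* fell in both, and *exosc7* and *exosc8* had changes between -0.09 and 0.06. With median of ratios scaling *exosc7* and *exosc8* rose in both conditions (0.96 and 1.07 in high K+ embryos, against 1.15 and 1.26 in control embryos) and *exosc1* and *exosc6* passed the test in neither. *exosc2*, a cap subunit of the exosome, had 58.7, 88.4 and 188 at 0, 3 and 6 h in high K+ embryos, against 44.4, 72.5 and 124 in control embryos. *exosc10*, the nuclear exonuclease of the complex, changed by -0.73 in high K+ (SE 0.34, limma adjusted p = 0.070) and -0.85 in control embryos (adjusted p = 0.036). In nonsense-mediated decay, which removes RNAs with early stop codons, 6 of 11 genes (54.5%) fell in high K+ and 5 (45.5%) in control embryos. None rose under the deposited scale. Over all tested genes 53.3% fell in high K+ and 55.7% in control embryos. The helicase gene *upf1* and the kinase gene *smg1* had changes of 0.36 and -0.28 in high K+ embryos, against 0.16 and -0.27 in control embryos, within 2 SE of 0 in each condition, and both rose in both conditions with median of ratios scaling.

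No member's change over time was shown to differ between high K+ and control embryos. The change from 0–1 h to 5–6 h differed between the conditions for 0 of the 55 members (limma interaction, adjusted p), and for 0 at an unadjusted p under 0.05. Over all tested genes 3 passed, or 0.0200%, and 427 had an unadjusted p under 0.05. The differences, high K+ minus control, lay between -0.49 for *dcp1a* and 0.76 for *pabpn1l* (SE 0.34 and 0.43). With spike-in scaling 0 members passed and 1 had an unadjusted p under 0.05. A simple measure of clearance is the first time after the highest value from which an RNA stayed under 50% of that value. It was reached by 33 members in high K+ and by 35 in control embryos. Of the 33 members that reached it in both, 17 reached it earlier in high K+ embryos, 7 later and 9 at the same time point. This is a description and was not tested. Shares over all tested genes are not given beside these counts, so they cannot be read as a trait of the members. An RNA with a higher early peak can also reach 50% of it sooner.

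Many members ran at a higher level in high K+ embryos between these ends. A Gaussian process was fitted to each gene, once to each condition alone and once to both together, and a gene was called where the separate fits had the higher log-likelihood (log-likelihood ratio, LR, above 0). By this measure 26 members were activated in high K+ embryos, 2 were repressed and 27 were not called. Over all tested genes 29.6% were activated and 9.26% repressed, and the members' 26 of 55 is 47.3%. The mean log2 difference over the 13 time points, high K+ minus control, had a median of 0.24 over the members and 0.08 over all tested genes. It was above 0 for 41 members and below 0 for 14, beside 8851 and 6168 of the 15019 tested genes. With each pair of samples scaled to a median ratio of 1, 16 members were activated and 9 repressed, where 18.7% of all tested genes were activated and 17.1% repressed. With spike-in scaling 9 were activated and 7 repressed, where 12.4% of all genes were activated and 16.5% repressed. The median over members was then 0.13 and 0.11, and over all genes -0.01 and -0.03. Of the 26 activated members, 8 were also activated under both scalings and without any 1 time point: *btg5*, *dcp1a*, *dcp1b*, *exosc1*, *exosc6*, *pabpn1*, *pum2* and *upf3b*. The share of all activated genes that kept the call in this way is not given, so this count cannot be read as a trait of the members. Repressed under both scalings were *btg2*, *cnot10*, *edc4*, *exosc9*, *pabpc1l* and *upf2*, of which *btg2* and *upf2* were also repressed as deposited. The share of all tested genes repressed under both scalings is not given either.

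**Figure D3:**
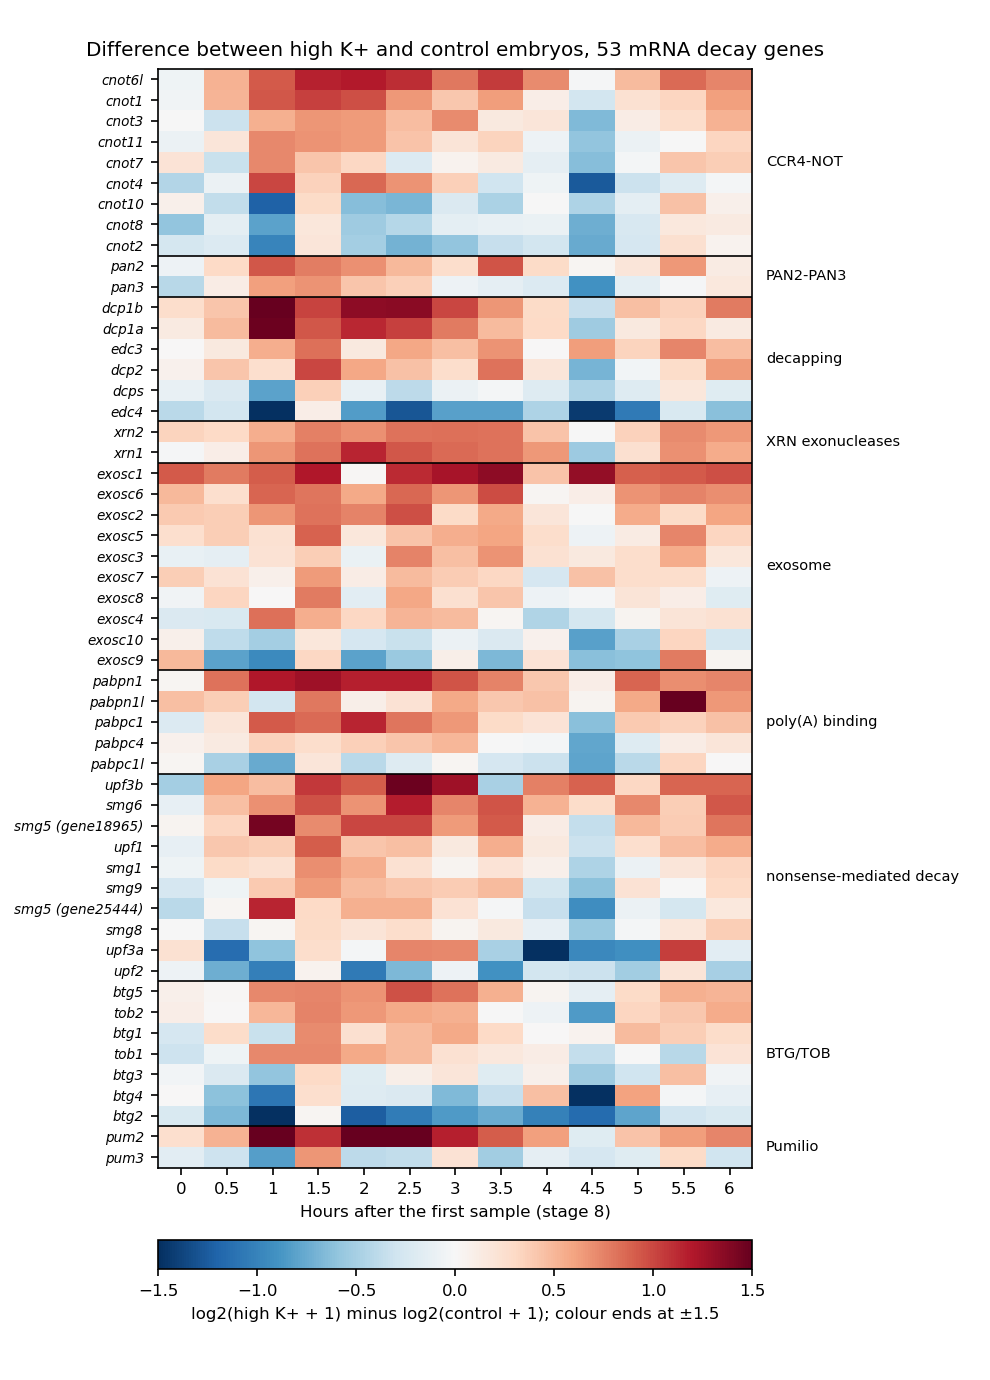
Log2 difference between high K+ and control embryos, log2(high K+ + 1) minus log2(control + 1), for 53 of the 55 members (rows, by role) at each of 13 time points (columns, in hours). Red is higher in high K+ and blue is lower. At 1.5 h all 55 members were higher in high K+ embryos, beside 86.2% of all tested genes. At 4.5 h 44 members were lower, as were 11826 of the 15019 tested genes.

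Most calls between the conditions lay in the first 3 h. In each of 4 windows of 3 time points the conditions were compared with limma, with the time point as a block. At 0.5 to 1.5 h 15 members were higher in high K+ embryos and 1 was lower, where 17.0% of all tested genes were higher and 2.5% lower. At 2 to 3 h 17 were higher and 3 lower, where 21.1% of all genes were higher and 3.74% lower. At 3.5 to 4.5 h 1 member, *exosc1*, was higher and 0 were lower (7 at an unadjusted p under 0.05), where 0.579% of all genes were higher and 1.12% lower. At 5 to 6 h *exosc1*, *pabpn1* and *pabpn1l* were higher and 0 members were lower (1 at an unadjusted p under 0.05), where 1.90% of all genes were higher and 0.499% lower. The median differences over the members in the 4 windows were 0.42, 0.42, -0.05 and 0.20, and over all tested genes 0.16, 0.17, -0.10 and 0.11.

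These limma calls rest on the scaling and on single time points. With each sample scaled to a median ratio of 1, 10 members were higher and 8 lower at 0.5 to 1.5 h, and 14 were higher and 9 lower at 2 to 3 h. The median differences over all tested genes in these windows were then 0.01 and -0.02. The shares of all tested genes called with this scaling are not given. With spike-in scaling all 4 windows gave 0 calls in either direction, with 3 members higher and 12 lower at an unadjusted p under 0.05 at 0.5 to 1.5 h and 11 higher and 5 lower at 2 to 3 h. Without the samples at 1 h 1 member was higher and 0 lower at 0.5 to 1.5 h, and without those at 1.5 h 4 were higher and 3 lower. At 2 to 3 h the counts of higher members were 9 without the samples at 2 h and 4 without those at 2.5 h, and those of lower members 0, 0 and 1 without the samples at 2, 2.5 and 3 h. No member was called at 3.5 to 4.5 h without the samples at 3.5 or 4.5 h, and none at 5 to 6 h without those at any 1 of its time points. Without the block 0 members were lower at 0.5 to 1.5 h, 0 were higher at 3.5 to 4.5 h and 1, *pabpn1*, at 5 to 6 h. Whole samples moved together. At 1.5 h 86.2% of all tested genes were higher in high K+ embryos, with a median of 0.48, and the spike-in level was 0.49 higher. At 4.5 h 20.9% were higher, with a median of -0.38, and the spike-in level was 0.30 higher.

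**Figure D4:**
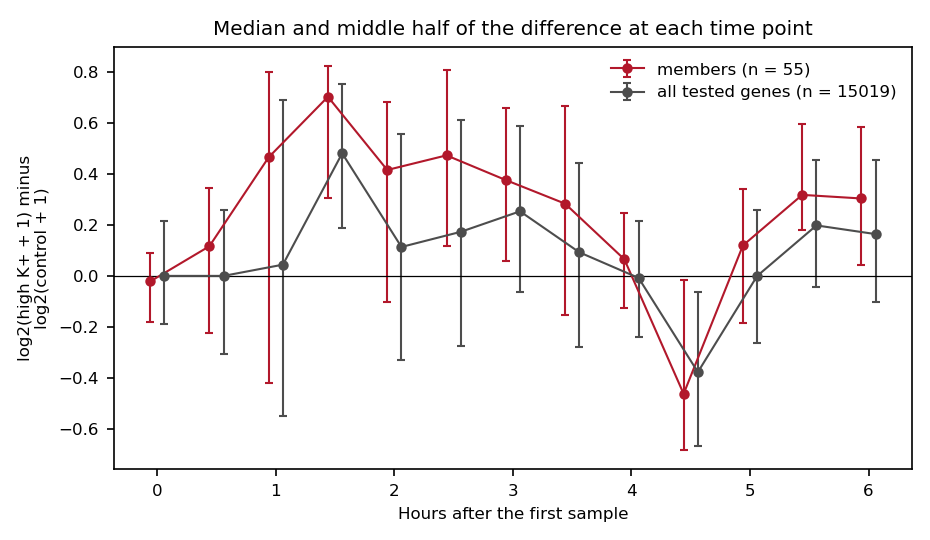
Median log2 difference between high K+ and control embryos at each time point (hours), over the 55 members (red) and over the 15019 tested genes (grey). Bars span the middle 50% of the genes. Both medians were highest at 1.5 h (0.70 over members and 0.48 over all genes) and lowest at 4.5 h (-0.46 and -0.38).

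Of the CCR4-NOT genes 4 of 9 (44.4%) were activated and none was repressed, beside 29.6% and 9.26% of all tested genes. Mean differences of its subunits lay on both sides of 0, as did those of all tested genes. *cnot6l*, 1 of the catalytic subunits of the CCR4 type, ranged from 77.7 to 381 with a median of 199 in high K+ embryos, against 42.8 to 257 with a median of 119 in control embryos. It was higher in high K+ embryos at 11 of 13 time points, most of all at 2 h, where the samples had 274 and 119. The mean log2 difference was 0.72 ± 0.41 (SD over 13 time points, LR 9.18), and the call was lost with spike-in scaling (LR -1.20). *cnot1*, the scaffold that carries all other subunits, had a lowest, median and highest value of 25.3, 51.3 and 68.8 in high K+ embryos, against 25.7, 34.2 and 51.5 in control embryos. The ranges overlapped, and the difference passed the test at 0.5 to 1.5 h (0.82, SE 0.20, limma adjusted p = 0.015) and at 2 to 3 h (0.67, SE 0.20, adjusted p = 0.023). Its call over the whole course was lost with spike-in scaling (LR -3.86). *cnot11*, a further subunit, ranged from 20.2 to 117 in high K+ embryos, against 17.8 to 75.5 in control embryos (LR 8.20), and this call was lost under both scalings. *cnot3*, a subunit of the NOT module, was the fourth activated gene, with an LR of 0.62 that fell below 0 without the samples at 1.5 h (-1.26). This call was also lost under both scalings (LR -5.63 with the pair scaling and -3.94 with spike-in scaling).

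Other subunits of the same complex were not activated, and *cnot2*, the partner of CNOT3 in the NOT module, was lower in high K+ embryos at 2 to 3 h (-0.60, SE 0.20, limma adjusted p = 0.040). It had 132, 145, 136 and 136 at 1, 2, 2.5 and 3 h in high K+ embryos, against 262, 207, 223 and 205 in control embryos. *cnot8* and *cnot10* had mean log2 differences of -0.26 each, and at 1 h the samples had 223 and 388 of *cnot8* and 85.4 and 199 of *cnot10* in high K+ and control embryos. Neither was called, with LR of -6.72 and -1.74, but *cnot10* was repressed under both scalings. *cnot7* and *cnot4*, a subunit with ubiquitin ligase activity, had mean differences of 0.10 ± 0.37 and 0.04 ± 0.61 (SD over 13 time points) and were not called. The sign of the fitted difference of *cnot7* turned with the pair scaling and that of *cnot4* with both scalings. The genes *cnot2*, *cnot3*, *cnot4* and *cnot10* were named after their values were seen.

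Both PAN2-PAN3 genes were activated, beside 29.6% of all tested genes. *pan2* had 126, 150.3 and 123 at 0.5, 1 and 1.5 h in high K+ embryos, against 103, 78.4 and 71.8 in control embryos. It was higher at 12 of 13 time points, and the difference at 0.5 to 1.5 h was 0.66 (SE 0.21, limma adjusted p = 0.040, LR 7.14). Its call over the whole course was lost under both scalings. *pan3* had 263, 273 and 232 at these times in high K+ embryos, against 243, 177 and 146 in control embryos. It was higher at 6 of 13 time points and lower at the others (mean log2 difference 0.03 ± 0.43, LR 2.77). The call of *pan3* was lost without the samples at 1 h (LR -1.04) and with the pair scaling, and its fitted difference turned negative with spike-in scaling.

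In the BTG/TOB family, whose proteins tether CCR4-NOT to RNAs, 3 of 7 genes (42.9%) were activated and 1 (14.3%) repressed. Over all tested genes these shares were 29.6% and 9.26%. *btg5* ranged from 25.0 to 97.0 with a median of 39.4 in high K+ embryos, against 19.7 to 51.0 with a median of 27.9 in control embryos. Its transient peak lay at 2.5 to 3 h in both conditions and was higher in high K+ embryos (97.0 and 90.5) than in control embryos (49.7 and 51.0). The difference at 2 to 3 h was 0.81 (SE 0.19, limma adjusted p = 0.0082, LR 6.40). *tob1* and *tob2* were activated with LR of 2.79 and 5.32, and both calls were lost under both scalings, that of *tob1* also without the samples at 1.5 h (LR -1.34). *btg2*, an early response gene of the same family, went the other way. It had 34.2, 34.1 and 30.7 at 1, 2 and 2.5 h in high K+ embryos, against 99.1, 81.5 and 64.7 in control embryos, and was lower at 12 of 13 time points. The differences were -0.72 at 0.5 to 1.5 h and -1.04 at 2 to 3 h (SE 0.23, limma adjusted p = 0.046 and 0.0075), the mean was -0.75 ± 0.46, and the gene was repressed as deposited (LR 1.60) and under both scalings. *btg4* had 322 at 1 h in high K+ and 682 in control embryos, and 236 and 198 at 1.5 h, and was not called (LR -3.49). *btg1* had a mean difference of 0.24 ± 0.31 (LR -0.69). *btg2* and *btg5* were named after their values were seen.

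**Figure D5:**
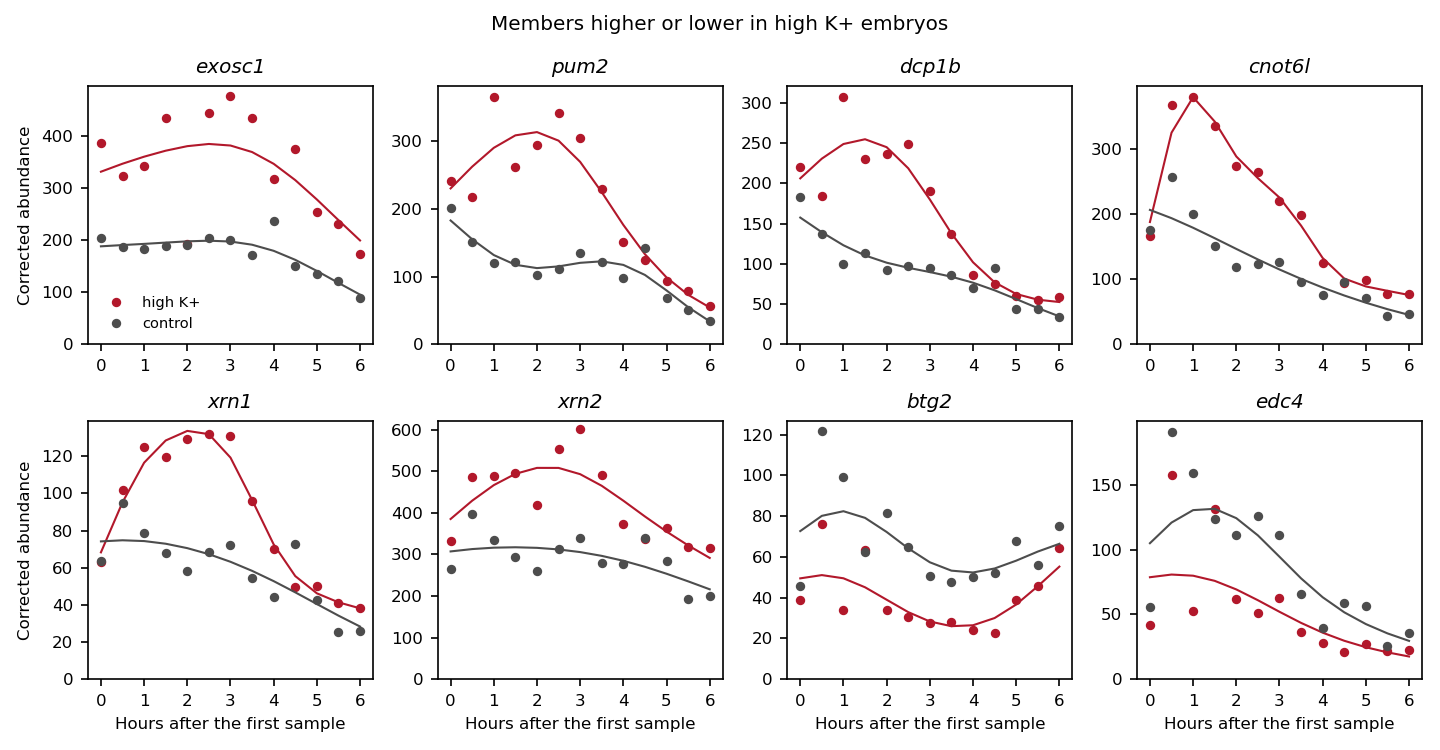
Corrected abundance against hours after the first sample for 6 members higher and 2 lower in high K+ embryos, with high K+ in red and control in grey. Points are samples and lines are the medians of the Gaussian process fits. *exosc1* was higher at 13 of 13 time points, and *btg2* and *edc4* were lower at 12.

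Of the poly(A) binding protein genes *pabpn1* and *pabpc1* (40%) were activated, beside 29.6% of all tested genes, and the other 3 were not called. *pabpn1* had the highest ratio of the members (LR 15.2). Its lowest, median and highest values were 408, 1316 and 1606 in high K+ embryos, against 400.5, 684 and 1156 in control embryos. The 2 courses began together at 0 h and then parted, with 766, 921 and 1053 at 0.5, 1 and 1.5 h in high K+ embryos, against 433, 400.5 and 435 in control embryos. The rise thus came earlier in high K+ embryos, and *pabpn1* was higher there at 13 of 13 time points. The differences were 1.10, 1.09 and 0.77 at 0.5 to 1.5 h, 2 to 3 h and 5 to 6 h (SE 0.16, limma adjusted p = 0.0032, 0.0013 and 0.028). *pabpc1* had 1237, 1226 and 1590 at 1, 1.5 and 2 h in high K+ embryos, against 653, 679.5 and 719.7 in control embryos, and 1138 and 1764 at 4.5 h. It was higher in high K+ embryos at 11 of 13 time points (mean 0.41 ± 0.48, LR 4.11), and the call was lost with spike-in scaling. *pabpn1l* was higher at 5 to 6 h (0.95, SE 0.23, limma adjusted p = 0.046), when it was far below its 0 h values of 240.2 and 176 in high K+ and control embryos. It then had 30.4, 28.0 and 18.0 in high K+ embryos, against 20.1, 8.48 and 11.1 in control embryos. *pabpc1l* and *pabpc4* had mean differences of -0.23 and 0.11 (LR -2.89 and -1.75), and the sign of the fitted difference of *pabpc4* turned under both scalings. *pabpc1l* was repressed under both scalings (LR 2.87 with the pair scaling and 1.37 with spike-in scaling).

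Of the decapping genes 3 of 6 (50%) were activated, namely *dcp1a*, *dcp1b* and *edc3*, beside 29.6% of all tested genes. *dcp1b*, the sister gene of *dcp1a*, ranged from 55.4 to 307 with a median of 184 in high K+ embryos, against 34.0 to 184 with a median of 94.5 in control embryos. From 1 to 3 h its high K+ values lay between 191 and 307 and its control values between 92.5 and 114, with no overlap. *dcp1a* had 311, 204 and 163 at 1, 1.5 and 2 h in high K+ embryos, against 112, 106 and 73.7 in control embryos, where the RNA was highest at 0 h. The differences of *dcp1b* were 1.01 and 1.23 in the first 2 windows and those of *dcp1a* 0.96 and 0.98 (SE 0.21 to 0.22, limma adjusted p = 0.0032 to 0.012), with LR of 10.1 and 11.5. *edc3* was higher at 13 of 13 time points by 0.42 ± 0.27 on average (LR 6.79), and its call was lost under both scalings. *dcp2* had a mean difference of 0.32 ± 0.42 and was not called (LR -0.996).

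*edc4*, the scaffold of the decapping complex, stood against its partners. It had 52.9, 61.8, 51.4 and 62.9 at 1, 2, 2.5 and 3 h in high K+ embryos, against 159, 111, 126 and 111 in control embryos, and at 1.5 h 132 and 123. It was lower in high K+ embryos at 12 of 13 time points, by -0.75 ± 0.50 on average and by -0.98 at 2 to 3 h (SE 0.28, limma adjusted p = 0.021). The Gaussian process did not call it as deposited (LR -0.72) but called it repressed under both scalings.

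Both exonucleases that digest RNA from the 5′ end were activated, beside 29.6% of all tested genes. *xrn1*, the cytoplasmic enzyme, had a lowest, median and highest value of 38.4, 96.0 and 132 in high K+ embryos, against 25.3, 63.8 and 94.8 in control embryos. Its level stayed between 119.5 and 132 from 1 to 3 h in high K+ embryos and between 58.2 and 78.8 in control embryos, with no overlap. *xrn2*, the nuclear enzyme, ranged from 315 to 601 with a median of 419 in high K+ embryos, against 193 to 396 with a median of 284 in control embryos. The differences at 2 to 3 h were 0.97 for *xrn1* and 0.78 for *xrn2* (SE 0.23 and 0.17, limma adjusted p = 0.0097 and 0.0064), with LR of 8.48 and 7.05. Both calls held with the pair scaling and were lost with spike-in scaling.

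Of the exosome genes 4 of 10 (40%) were activated, namely *exosc1*, *exosc2*, *exosc5* and *exosc6*, beside 29.6% of all tested genes. *exosc1*, a cap subunit that touches the cofactors of the complex, ranged from 173 to 477 with a median of 342 in high K+ embryos, against 88.1 to 236 with a median of 187 in control embryos. It was already higher at 0 h, with 387 and 204, and at 2 h the samples hardly differed, with 193 and 190.5. The differences in the 4 windows were 0.96, 0.80, 1.03 and 0.93 (SE 0.23, limma adjusted p = 0.015, 0.023, 0.042 and 0.049). On the deposited scale *exosc1* was the only member called in every window. With median of ratios scaling it did not pass at 2 to 3 h or at 5 to 6 h (limma adjusted p = 0.086 and 0.067). With spike-in scaling it passed in no window. *exosc6*, a subunit of the ring, had a median of 365 in high K+ and 228 in control embryos and was higher at 13 of 13 time points (LR 11.2). *exosc2* had 76.8, 69.7 and 115 at 1.5, 2 and 2.5 h in high K+ embryos, against 43.1, 41.2 and 58.5 in control embryos, and at 4.5 h 129.9 and 130.5 (LR 6.61), and its call was lost with spike-in scaling. The call of *exosc5* (LR 3.99) was lost under both scalings (LR -0.69 with the pair scaling and -5.72 with spike-in scaling). The exosome genes that were not called had mean differences between -0.24 and 0.27, with *exosc9* and *exosc10* below 0 (LR -2.98 and -2.38). *exosc9* was repressed under both scalings (LR 0.47 with the pair scaling and 3.29 with spike-in scaling), and *exosc10* with the pair scaling (LR 0.23).

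Of the nonsense-mediated decay genes 5 of 11 (45.5%) were activated and 1 (9.09%) was repressed, beside 29.6% and 9.26% of all tested genes. *smg6*, the endonuclease, and *smg5* (gene18965), an adaptor that brings in later decay steps, were activated with LR of 5.64 and 3.74, and both calls were lost with spike-in scaling (LR -3.50 and -1.69). *smg6* had 73.2, 74.4 and 51.6 at 0.5, 1 and 1.5 h in high K+ embryos, against 53.3, 45.8 and 26.1 in control embryos. *upf3b*, a link to the exon junction complex, had 67.6, 71.1 and 54.5 at 2, 2.5 and 3 h in high K+ embryos, against 35.6, 24.9 and 22.0 in control embryos, a difference of 1.22 (SE 0.25, limma adjusted p = 0.0047). *upf1* was activated with an LR of 1.60 that fell to -0.21 without the samples at 1.5 h and was below 0 under both scalings (-0.93 and -2.73), and *smg1* was not called (LR -4.97). The 2 rows named *smg5* did not behave alike: the row gene25444 had a mean difference of 0.07 ± 0.52 and was not called (LR -2.70). *upf2*, the partner that joins UPF1 and UPF3, was repressed with an LR of 0.015, and had 32.1, 30.9 and 37.1 at 1, 2 and 2.5 h in high K+ embryos, against 66.5, 65.3 and 59.7 in control embryos. This call was lost without the samples at 2 h (LR -1.70) and held under both scalings. Apart from *upf1* and *smg1*, these genes were named after their values were seen.

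Of the 3 Pumilio genes, whose proteins bind sites in target RNAs and recruit CCR4-NOT, 1 was activated, *pum2*. This share, 33.3%, lay close to the 29.6% of all tested genes. *pum2* had a lowest, median and highest value of 56.6, 229.6 and 365 in high K+ embryos, against 33.7, 120.0 and 201 in control embryos. The control course was highest at 0 h, while the high K+ samples from 1 to 3 h lay between 262 and 365, above every control sample. The differences were 1.07 and 1.43 at 0.5 to 1.5 h and 2 to 3 h (SE 0.22, limma adjusted p = 0.010 and 0.0016), and that at 2 to 3 h was the highest of any member in the 4 windows.

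At 1 h the members lay far apart, as did all tested genes. There 39 members were higher and 16 lower in high K+ embryos, and 52.0% of all tested genes were higher. The middle 50% of the differences ran from -0.55 to 0.69 over all tested genes and from -0.42 to 0.80 over the members. The ends were *dcp1b* (1.61), *pum2*, *dcp1a* and *smg5* (gene18965, 1.43) above 0, and *edc4* (-1.57), *btg2* (-1.51), *cnot10* (-1.21) and *btg4* (-1.08) below. At 1.5 h all 55 were higher, and at 2 h 39 members were again higher and 16 lower. Over all tested genes 86.2% and 56.8% were higher at these times. Of the 26 activated members, 5 had their largest difference at 1 h, 8 at 1.5 h, 3 at 2 h, 5 at 2.5 h, 2 at 3 h and 3 at 3.5 h.

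Other genes of mRNA decay, taken from a list of 67 symbols outside the rule, had 58 rows, all tested. Of these 18 were activated and 7 repressed, or 31.0% and 12.1%, beside 29.6% and 9.26% of all tested genes, and the median of their mean differences was 0.14. Among the activated were *eif4enif1*, which holds translation in check with the decapping factors (mean abundance 414 in high K+ and 269 in control embryos, LR 14.3), *dis3l*, a catalytic subunit of the cytoplasmic exosome (98.3 and 62.9, LR 13.5), and the exon junction genes *casc3* (542 and 333, LR 12.6) and *rnps1* (562 and 315, LR 10.9). Among the repressed were *samd4a*, the Smaug protein that recruits CCR4-NOT (21.3 in high K+ and 32.8 in control embryos, LR 9.27, lower at 13 of 13 time points), *dis3*, the nuclear counterpart of *dis3l* (61.0 and 95.7, LR 1.97), and *zfp36l2*, a binder of AU-rich elements (52.6 and 73.6, LR 6.45). These genes were named after their values were seen. Over time 10 of the 58 (17.2%) rose and 30 (51.7%) fell in high K+ embryos, against 8 (13.8%) and 35 (60.3%) in control embryos. These shares lay near those of all tested genes, of which 20.4% rose and 53.3% fell in high K+ embryos. In control embryos 19.5% of all tested genes rose and 55.7% fell. The egg factor *cpeb1*, which controls tail length of stored RNAs, changed by -7.01 in high K+ and -6.89 in control embryos, close to the loss of *btg4*. The change over time differed between the conditions for 0 of the 58 (limma interaction; 0 at an unadjusted p under 0.05).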

How the data were processed

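RNA-seq of 26 whole-embryo samples was used. The deposited values are a signal per gene that the authors made from stranded paired-end reads: STAR alignment to Xt9.1 with the spike-in sequences, RSEM estimates per isoform in TPM, a dinucleotide correction whose model came from the ERCC spikes of each condition, and a sum over isoforms. Versions of these tools are not given in the sources used here. The values are neither counts nor TPM any more, so no depth or counting interval can be given. The bias they corrected depended on batch, and a correction fitted per condition cannot be told apart from the condition. RSEM divides reads shared by near-identical copies, so *pabpc1*, *pabpc1l*, *pabpc4* and the pair of *smg5* rows are uncertain. The deposited table held 34192 genes and 92 spike-in RNAs. Values were used as deposited.

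Genes with an abundance above 0.4 in 6 consecutive samples were tested. The Gaussian process used the transform of the study (alpha 1, beta 1000), a Matern kernel, hours and a mean of 0 (Python 3.11.15, numpy 2.4.6, scipy 1.17.1, pandas 2.3.3, numba 0.67.0). limma 3.58.1 in R 4.3.3 was run with a trend on log2(abundance + 1), a scale that understates the change of low genes, with 8 residual degrees of freedom in the window fit and in the time fit. Calls needed an adjusted p under 0.05. Figures used matplotlib 3.10.9. The window fit had the time point as a block. Each fit was tested on simulated data. No 2 samples held identical values, and no sample was left out or imputed.

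Samples were paired by the time label. Deviations from the condition mean correlated at 0.57 to 0.92 within the 13 pairs. In 10 of these pairs the correlation was highest with the sample of the same label. At 1, 2 and 3.5 h it was not, which limits the pairwise differences at these times. Named genes were the 10 members with the highest LR, the 5 that fell and 5 that rose most in control embryos, and a list of 23 symbols. Members named outside these rules, among them *edc3*, *dcps*, *exosc4*, *exosc5*, *exosc7*, *exosc8* and *exosc9*, were named after their values were seen. The members and lists were chosen with earlier results of these data known. The alternatives were 3 scalings, other filters, pseudocounts, means, transforms and thresholds, limma, and leaving out each time point.
Results for single members that are not reported here were kept in the counts over the members.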

Additional observations from a re-analysis of the deposited data

Results flagged for a closer look

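For 5 members every time point of one window was higher in high K+ embryos and every time point of another was lower. The share of all tested genes with such a pattern is not given, so this count cannot be read as a trait of the members. The values below are differences between windows in the high K+ minus control difference, on the log2(abundance + 1) scale, and none of them was tested. For *tob2* the difference at 3.5 to 4.5 h was lower by 0.73 than at 0.5 to 1.5 h, by 0.89 than at 2 to 3 h and by 0.73 than at 5 to 6 h. For *cnot4*, named after its values were seen, the difference at 2 to 3 h exceeded that at 3.5 to 4.5 h by 1.17 and that at 5 to 6 h by 0.81. For *pan3* the windows 0.5 to 1.5 h and 3.5 to 4.5 h lay 0.88 apart. For the *smg5* row gene25444, also named after its values were seen, the window 3.5 to 4.5 h lay 0.92 under 0.5 to 1.5 h and 0.86 under 2 to 3 h. For *pabpc4* these distances were 0.52 and 0.70. In 9 of these 10 comparisons the low window was 3.5 to 4.5 h, which holds the sample pair at 4.5 h, where the median difference of all tested genes was -0.38. The part of that pair in these values was not tested.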

How the results depend on the processing

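The counts of members moved with the scaling, the model and the block. With each pair scaled to a median ratio of 1 the Gaussian process called 16 members activated and 9 repressed, and with spike-in scaling 9 and 7. Other settings moved the repressed count to 6 (mean subtracted first), 1 (log2 transform) and 0 (Bayesian information criterion). limma over the whole course gave 5 lower members with the time point as replicate block, and 3 higher and 1 lower without the block. In the windows, median of ratios scaling gave 8 lower members at 0.5 to 1.5 h, 9 lower at 2 to 3 h, and 5 higher and 1 lower at 3.5 to 4.5 h, and spike-in scaling gave 0 higher in each of the 4 windows and 0 lower in the first 2. A pseudocount of 0.1, a mean abundance of at least 1 and the fit with no replicate block each gave 0 lower at 0.5 to 1.5 h, 0 higher at 3.5 to 4.5 h and 1 higher at 5 to 6 h. With no filter on low values these counts were 0, 0 and 1, with 9 higher at 0.5 to 1.5 h and 1 lower at 2 to 3 h. Over time, median of ratios scaling gave 22 rising and 16 falling members in high K+ embryos, against 20 and 15 in control embryos, and spike-in scaling 3 rising in control embryos. The shares of all tested genes in the limma fits under other scalings are not given. The replicate block in the time fit moved no count by over 1.5 times. Members whose fitted direction turned with pair scaling included *cnot4* (LR -3.28), *cnot7* (LR -6.69), *pabpc4* (LR -7.41) and the *smg5* row gene25444 (LR -4.25). With spike-in scaling they included *cnot4* (LR -2.03), *pan3* (LR -8.66), *pabpc4* (LR -5.58) and the same *smg5* row (LR -4.43). The cause of these changes was not tested.

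Leaving out each time point in turn gave 23 to 29 activated and 1 to 5 repressed members, with 5 repressed without the samples at 1.5 h, 4 without those at 0 h and 1 without those at 2, 2.5, 3.5, 4.5 or 5 h. The counts of higher members ranged from 1 to 19 at 0.5 to 1.5 h, 4 to 14 at 2 to 3 h, 0 to 1 at 3.5 to 4.5 h and were 0 at 5 to 6 h. The counts of lower members ranged from 0 to 3 and 0 to 1 in the first 2 windows and were 0 in the others. Without the samples at 1 h 1 member was higher at 0.5 to 1.5 h. Over time 28 to 33 members fell and 5 to 6 rose in high K+ embryos, against 28 to 35 and 5 to 6 in control embryos, and the median of the mean differences was 0.20 to 0.26. The depth is unknown, each condition is 1 course, and neighbouring samples are not independent.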
